A study of Mus musculus with 6 samples.

Results

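The 9 genes described here mark the steps by which new granule neurons are made in the adult dentate gyrus of the mouse hippocampus. They are Hopx and Nes for radial glia-like stem cells, Eomes, Neurod1 and Igfbpl1 for progenitors on their way to neurons, and Dcx, Sox11, Sox4 and Tubb3 for immature neurons. They were taken by symbol from a table of 55471 genes, not by their values, and all 9 are among the 18603 genes that have an adjusted p. RNA came from the hippocampus of wild-type (WT) mice 24 hours after cerebral ischemia reperfusion, a stroke model in which blood flow is stopped and then restored. The Saline group has 3 samples and the Visudyne group has 3, and every sample had the stroke, so no group without it enters the comparison. Visudyne is a preparation of verteporfin, a photosensitizer, with which the series ablates the lymphatic vessels of the meninges. The labels give no age or sex and do not say whether each sample is its own animal, so the p-values measure the spread between samples, which may be technical.

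Stem cells of the subgranular zone divide to give progenitors, which express Eomes and then Neurod1 and divide a few more times. Their daughters become neuroblasts and immature neurons that express Dcx, extend processes and, over weeks, become granule neurons that express Prox1 and Calb1. Stroke is known in rodents to raise the division of these cells over the following days. None of the 9 genes is exclusive to this lineage. Hopx and Nes are also found in astrocytes or in vessels and reactive glia, Eomes and Igfbpl1 in other immature neurons, and Sox4, Sox11 and Tubb3 in neurons more widely.

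The authors' deposited table gives 1 mean count, 1 log2 fold change and 1 p-value per gene and does not state which treatment is the numerator. Directions are therefore given as sides. The positive side is the treatment in the numerator, which would be Visudyne had the groups been ordered alphabetically, but the files do not say so. The table's means can be taken apart where they are low, since the reads of each library add a fixed step to the mean. The 6 steps correspond to 6 libraries, called here N1, N2 and N3 on the negative side and P1, P2 and P3 on the positive side, with size factors (relative depths) of 1.517, 1.223, 0.754, 1.197, 1.055 and 0.584. They cannot be tied to sample names, so their values are given as a description. Of the 9 genes, 7 gave a single set of whole reads within the ranges searched, and Hopx and Tubb3 have means too high for it. P2 was the highest library for 6 of the 6 markers of meningeal fibroblasts that could be read and for the choroid plexus gene Kcne2. N2 was the highest for 4 of the 4 ependymal markers that could be read. Of the 53 genes of the marker lists below that could be read and had means of at least 15, 13 were highest in N2 and 16 in P2. Those 53 include the markers just counted except the meningeal marker Igf2 (mean 6.98). These 2 libraries recur below.

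The promoters of Tubb3 and Dcx are shown because SOX4 and SOX11, both among the 9 genes, are known to act there. The words ACAAAG and ACAATG, which SOX proteins can bind, were searched on both strands in the 250 bases before each start site (RefSeq, GRCm38.p6). The words do not overlap each other. In capitals is each match. Only the bases before the first exon of the GENCODE annotation are printed.
Tubb3: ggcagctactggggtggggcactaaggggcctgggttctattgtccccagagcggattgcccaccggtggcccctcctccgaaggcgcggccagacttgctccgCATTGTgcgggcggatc
Dcx: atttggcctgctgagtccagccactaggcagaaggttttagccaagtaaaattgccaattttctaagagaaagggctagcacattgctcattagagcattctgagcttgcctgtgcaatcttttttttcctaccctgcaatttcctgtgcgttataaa
The Tubb3 stretch is chr8:123411303-123411423 on the plus strand and the Dcx stretch is chrX:143933312-143933469 on the minus strand. The Tubb3 window holds 2 matches, CATTGT at 146 and at 96 bases before the start, of which the first lies in the printed stretch. The window of the upstream Dcx start holds 0 matches, and that of a downstream Dcx start holds 1, ACAAAG at 8 bases before it. Over all 32851 start sites, 25.2% of windows hold at least 1 match and 4.12% hold at least 2. Of the 9 genes 8 have an entry, with 10 start sites, of which 2 hold a match. The 2 words were picked after 8 had been looked at, and a match is only a run of letters.

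By the p-values of the authors' deposited table, none of the 9 genes passed an adjusted threshold of 0.05, where 0.328% of the 18603 tested genes did. By side, 34 genes (0.183%) passed on the positive side and 27 (0.145%) on the negative side. At an unadjusted p under 0.05 there was 1 of the 9, Hopx, against 6.81% of all tested genes. The 5 stem cell and progenitor genes all had negative fold changes and the 4 immature neuron genes all had positive ones, each without passing the test. That split depends on how the genes are grouped. Igfbpl1 (-0.48), placed with the progenitors, and Dcx (0.34), placed with the immature neurons, are both expressed by neuroblasts. Leaving out 1 library turned the sign for Nes, Igfbpl1 and Sox11, and the value of Sox4 fell to 0.008 without P2. The longer lists of stem cell, progenitor and immature neuron genes below each held both signs. Among all tested genes 50.5% had a positive value. The median over the 9 genes was -0.13 on the log2 scale, beside 0.003 over all tested genes. The fold changes printed below are unshrunken log2 values (positive over negative side, ± SE, from all 6 libraries) that were back-calculated, since the deposited ones lie within 0.02 of 0 for all 9 genes.

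**Figure D1:**
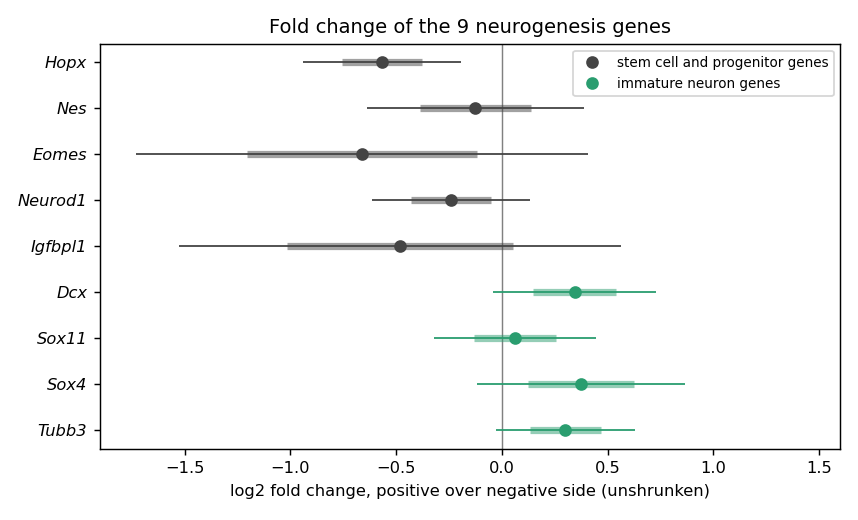
Unshrunken log2 fold change of the 9 genes, positive over negative side of the comparison (horizontal axis). Points are estimates, thick bars ± 1 SE and thin lines 95% intervals over 3 libraries a side. The interval of Hopx, from -0.94 to -0.19, lies below 0, and the other 8 intervals include 0.

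Hopx (ENSMUSG00000059325) encodes a homeodomain-only protein that marks quiescent stem cells of the dentate gyrus and is also made by astrocytes. Its mean was 1617 normalized counts, which the fold change splits into about 1930 for the negative side and 1303 for the positive. The log2 fold change was -0.57 ± 0.19 (95% interval -0.94 to -0.19), which is 0.675 times the level of the negative side. Its p was 0.00293 and its adjusted p 0.228 in the authors' deposited table, and it held rank 239 by p among the tested genes. Fewer cells of a type and less RNA per cell cannot be told apart in bulk tissue, for Hopx or for any gene below.

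Nes encodes nestin, an intermediate filament of stem cells that vessels and reactive glia also make. Its normalized counts were 169 in N1, 188 in N2, 154 in N3, 113 in P1, 205 in P2 and 152 in P3. The highest and the lowest library were both on the positive side, so the sides overlapped fully. Its log2 fold change was -0.13 ± 0.26 (p = 0.629, adjusted p = 0.983 in the authors' deposited table). Leaving out P1 alone turned the ratio of the means to 0.07 on the log2 scale.

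A list of 24 other stem cell genes held values of both signs. Of 23 tested, 14 had positive and 9 negative values, none passed the adjusted test, and their median was 0.09. In the authors' deposited table the smallest p belonged to Gli1, a target of Sonic hedgehog signaling, with 0.00201 (adjusted p = 0.187). Gli1 had 128, 89.1 and 71.6 normalized counts in N1 to N3 and 233, 184 and 132 in P1 to P3. Those sides did not overlap, and its log2 fold change was 0.93 ± 0.30. Sides did not overlap for 11 (20.75%) of the 53 list genes of mean 15 or more that could be read. The share was 15.2% among 297 genes drawn at random with means of 15 to 40. Lpar1, a lysophosphatidic acid receptor of these stem cells, had -0.62 ± 0.22 (p = 0.00406, adjusted p = 0.274 in the authors' deposited table). Fabp7, a fatty acid binding protein of radial glia, had -0.54 ± 0.19 (p = 0.00499, adjusted p = 0.295 in the authors' deposited table). At an unadjusted p under 0.05 there were 6 negative genes and 1 positive in this list, against 2.89% and 3.92% of all tested genes. Gfap and Vim are among the 6 and also belong to the list of reactive astrocytes below, so the 6 are not particular to stem cells.

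Markers of other glia were read beside these. Of 10 markers of astrocytes, 7 were positive and Fgfr3, a fibroblast growth factor receptor, passed the test at 0.71 ± 0.19 (adjusted p = 0.0456 in the authors' deposited table). That call was lost with adjustment over every gene with a p, with z divided by its SD and with z centred by mean count. Of 10 markers of reactive astrocytes, 7 were negative, with a median of -0.48, and none passed. The 7 include Gfap and Vim, which were counted among the stem cell genes too. Of 10 markers of microglia, 10 were negative, with a median of -0.41. Of these 2 passed, Fcrls at -1.38 ± 0.27 and Itgam at -1.44 ± 0.30 (0.00112 and 0.00282 as adjusted p in the authors' deposited table). The part of these cells in the value of Hopx was not tested.

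Eomes, also called Tbr2, encodes the T-box factor of intermediate progenitors. Its reads were 39 in N1, 83 in N2, 31 in N3, 48 in P1, 36 in P2 and 5 in P3. Scaled to depth these were 25.7, 67.9, 41.1, 40.1, 34.1 and 8.56 normalized counts. N2 was the highest and P3 by far the lowest, and the other 4 lay together with the sides overlapping. For Eomes the log2 fold change was -0.66 ± 0.54 (95% interval -1.73 to 0.41), with p = 0.225 and adjusted p = 0.926 in the authors' deposited table. Without P3 the ratio of the means was -0.27 on the log2 scale, and without P1 it was -1.07.

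Ebf3, a transcription factor of Cajal-Retzius cells, which also express Eomes during their development, was highest in the same library. It had 18.5, 110 and 45.1 normalized counts in N1 to N3 and 50.1, 40.8 and 20.5 in P1 to P3. Of the 5 Cajal-Retzius markers that could be read, 3 were highest in N2, Ebf3, Nhlh2 and Cxcr4, beside 13 of the 53 list genes. Those 53 have means of at least 15 and include these markers except Lhx5 (mean 8.14). Nhlh2 had 85.8 and Cxcr4 113 there, beside 46.4 to 63.9 and 80.2 to 80.9 in the other libraries. Trp73 was highest in P2, at 159, with 108 in N2, and Lhx5 was highest in P1. Of 9 Cajal-Retzius markers tested, 5 were positive and only Reln, the secreted guidance protein reelin, passed, at 0.80 ± 0.19 (adjusted p = 0.0159 in the authors' deposited table), a call lost with z divided by its SD. The share of Eomes reads from such cells was not tested.

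Neurod1 encodes a basic helix-loop-helix factor needed for the survival of newborn granule neurons, and granule neurons go on expressing it. Its normalized counts were 634 in N1, 497 in N2, 549 in N3, 526 in P1, 386 in P2 and 517 in P3. The sides overlapped, with N1 the highest and P2 the lowest. Neurod1 had a log2 fold change of -0.24 ± 0.19 (95% interval -0.61 to 0.13), with p = 0.207 and adjusted p = 0.922 in the authors' deposited table. Leaving out any 1 library kept the ratio of the means between -0.31 and -0.10.

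Igfbpl1 encodes a secreted protein related to the insulin-like growth factor binding proteins, and neuroblasts express it both in the dentate gyrus and along the lateral ventricle. Its reads were 91 in N1, 136 in N2, 24 in N3, 44 in P1, 91 in P2 and 13 in P3. As normalized counts these were 60.0, 111, 31.8, 36.8, 86.2 and 22.3. Each side held 1 high library, N2 and P2, and the lowest library on each side was the shallowest. The log2 fold change was -0.48 ± 0.53 (p = 0.367, adjusted p = 0.960 in the authors' deposited table). The ratio of the means on the log2 scale was -1.20 without P2 and 0.08 without N2, so 1 library decided its sign. Its reads scatter more than the check used for genes with several possible sets allows. Its set was accepted because no other set in the range searched gave the mean.

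N2 and P2 were also the highest libraries for Dynlrb2, a gene of motile cilia in the ependymal cells that line the ventricles. Dynlrb2 had 48.8, 94.0, 26.5, 30.1, 84.3 and 29.1 normalized counts from N1 to P3. Sp8, a factor of neuroblasts that migrate from the lateral ventricle to the olfactory bulb, had 33.6, 109, 37.1, 31.8, 61.6 and 34.2. Dynlrb2 and Sp8 were picked for that order after their values were seen, and most readable genes of their lists did not have it. The other ependymal markers, Meig1, Tmem212 and Rsph1, were highest in N2 but had P2 at 32.2, 72.0 and 96.7, below N1 or P1. Of the other readable ventricular lineage genes, Dlx2 was highest in P2 and Dlx5 in P3. Of 8 ependymal markers, 8 had negative fold changes with a median of -0.55, and none passed the test. The smallest adjusted p among them, 0.0782 in the authors' deposited table, was that of Ccdc153 at -1.24 ± 0.35. The part of tissue near the ventricle in the reads of Igfbpl1 was not tested.

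Among the other 15 progenitor genes, 14 were tested, 6 were positive and 8 negative, and none passed. Their median was -0.07. Hes6, an inhibitor of Hes1 in neuron formation, had 0.36 ± 0.16 (p = 0.0221, adjusted p = 0.561 in the authors' deposited table). Gadd45g, a stress-inducible gene active as progenitors leave the cell cycle, had -0.31 ± 0.15 (p = 0.0345, adjusted p = 0.649 in the authors' deposited table). Neurog2, a proneural factor that acts just before Eomes, had 61.3, 41.7 and 45.1 normalized counts in N1 to N3 and 32.6, 33.2 and 47.9 in P1 to P3.

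**Figure D2:**
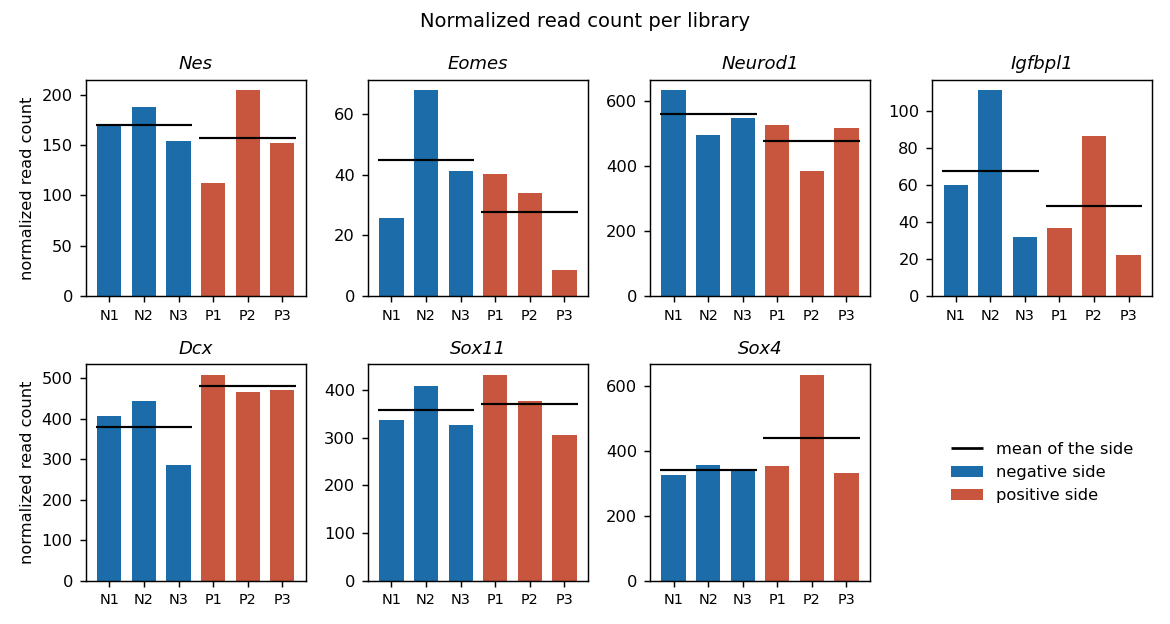
Normalized read count (vertical axis, starting at 0) in each of the 6 libraries for the 7 genes whose reads could be taken apart. Blue bars are libraries of the negative side, red bars those of the positive side, and black lines the mean of each side. The sides are apart only for Dcx, whose lowest positive library has 466 and highest negative library 443.

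Dcx encodes doublecortin, the microtubule-associated protein of migrating neuroblasts and the usual marker of newborn neurons in the adult dentate gyrus. Its reads were 616 in N1, 542 in N2, 216 in N3, 609 in P1, 492 in P2 and 275 in P3. As normalized counts these were 406, 443 and 287 on the negative side and 509, 466 and 471 on the positive side. All libraries of the positive side lay above all of the negative side, with a narrow gap between P2 and N2. Dcx had a log2 fold change of 0.34 ± 0.20 (95% interval -0.04 to 0.73), with p = 0.0813 and adjusted p = 0.811 in the authors' deposited table. Without N3, its lowest library, the ratio of the means was 0.18 on the log2 scale, and without N2 it was 0.48. Of the 7 genes read per library, 1 had sides that did not overlap, where 15.2% of 297 genes drawn at random with means of 15 to 40 had the same (8.75% with the positive side higher and 6.4% with the negative side higher). The share of the 7 is near that background. All of the 7 but Eomes have higher means than those random genes (430 for Dcx), so the shares are not at like depth.

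Sox11 and Sox4 encode related SoxC factors that act in neuroblasts and immature neurons. Sox11 had 337, 408 and 326 normalized counts in N1 to N3 and 432, 377 and 305 in P1 to P3. Its highest and lowest libraries were both on the positive side, and the log2 fold change was 0.06 ± 0.19 (p = 0.752, adjusted p = 0.992 in the authors' deposited table). Without P1 or without N3 its ratio turned negative. Sox4 had 326, 356 and 342 normalized counts in N1 to N3 and 354, 634 and 332 in P1 to P3. P2 alone stood apart, and the other 5 libraries lay between 326 and 356. Its log2 fold change was 0.37 ± 0.25 (p = 0.138, adjusted p = 0.874 in the authors' deposited table), and without P2 the ratio of the means was 0.008 on the log2 scale.

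P2 was also the highest library for the 6 meningeal genes that could be read and for Kcne2, the only choroid plexus gene that could be. It was the highest for 16 of the 53 list genes of mean 15 or more, which include these genes except Igf2 (mean 6.98). Slc22a6, an organic anion transporter of the meninges, had 23.1, 49.1 and 49.1 normalized counts in N1 to N3 and 130, 196 and 63.3 in P1 to P3. Kcne2, a potassium channel subunit of choroid plexus epithelium, had 43.5, 150, 18.6, 165, 325 and 56.5 in the same order. Of 10 meningeal markers 10 were positive and 4 passed the test, Fmod, Slc22a6, Slc6a13 and Dcn, with log2 fold changes of 2.05, 1.71, 1.19 and 1.16. With adjustment over every gene with a p 2 of them passed, and with z divided by its SD 1 did. Over the 6 meningeal markers that could be read, the summed counts were 359 to 491 in the negative libraries and 498 to 1173 in the positive ones. Of 8 choroid plexus markers 8 were positive and none passed. Sox4 is known to be active outside the nervous system too, and the part of meningeal or choroid tissue in its P2 value was not tested.

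Tubb3 encodes class III beta-tubulin, which neurons make from the time they are born and keep making as they mature. Its mean was 10170 normalized counts, by the fold change about 9118 for the negative side and 11222 for the positive. The log2 fold change was 0.30 ± 0.17 (95% interval -0.03 to 0.63), with p = 0.0745 and adjusted p = 0.796 in the authors' deposited table. Beside it, 12 genes of neurons in general had a median of 0.08, with 8 positive, 4 negative and none past the test.

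Of 30 other genes of neuroblasts and immature neurons, 19 had positive and 11 negative values, none passed, and the median was 0.04. Elavl4, an RNA-binding protein of neurons, had 0.53 ± 0.17 (p = 0.00208, adjusted p = 0.187 in the authors' deposited table). Dpysl5, a collapsin response mediator of growing axons, had 0.45 ± 0.19 (p = 0.0183, adjusted p = 0.526 in the authors' deposited table). Tubb2b, a beta-tubulin of migrating neurons, had -0.36 ± 0.15 (p = 0.0159, adjusted p = 0.501 in the authors' deposited table). Among 12 markers of the ventricular and olfactory bulb lineage, 11 values were positive, with a median of 0.13, and none passed, and most of these genes are also expressed by interneurons.

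**Figure D3:**
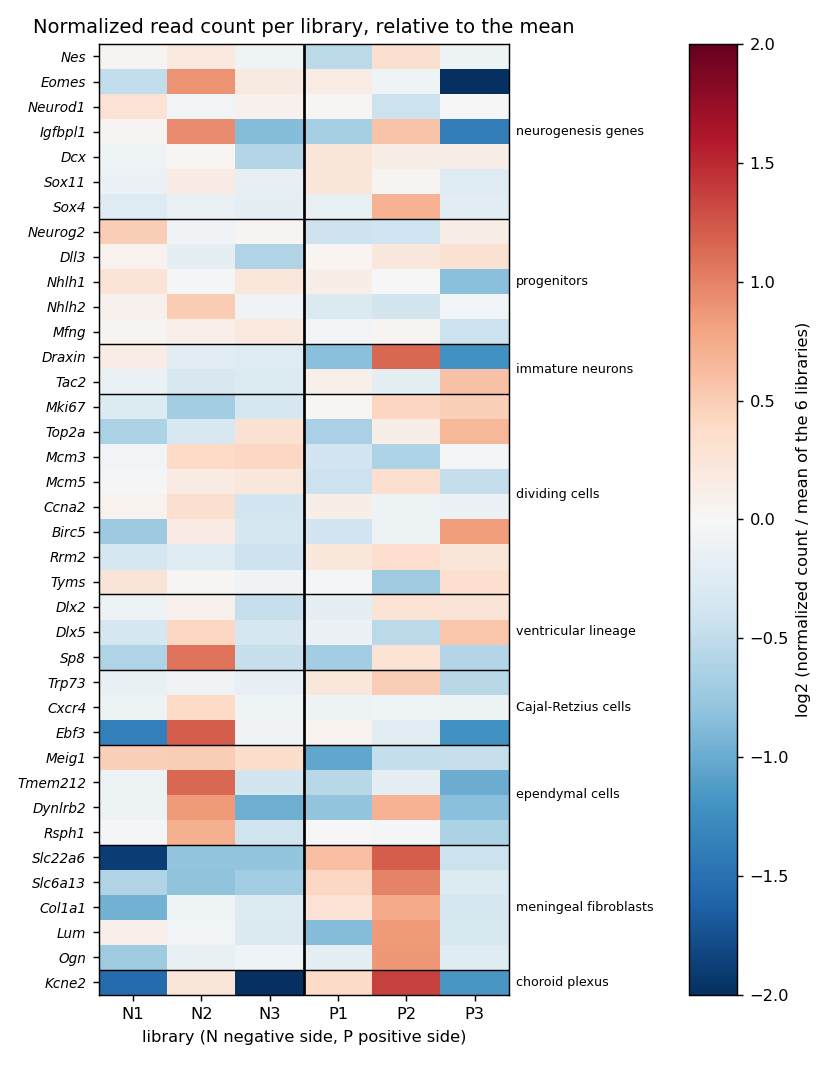
Normalized count of 38 genes in each library, divided by the gene's mean over the 6 libraries and shown on a log2 color scale (red above, blue below the mean, capped at 2). Rows are the 7 neurogenesis genes that could be read, then readable genes with a mean of at least 15 from some of the fixed lists. These lists are progenitors, immature neurons, dividing cells, ventricular lineage, Cajal-Retzius cells, ependymal cells, meningeal fibroblasts and choroid plexus. Other lists are not drawn. Not every readable gene of these lists is drawn, and not every gene drawn is named in the text. The vertical line separates the sides. Igfbpl1 is highest in N2 and then P2, the 4 ependymal genes are highest in N2 without sharing P2 except for Dynlrb2, and the meningeal genes are highest in P2.

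The genes of dentate granule neurons, the end of the lineage, were mostly on the negative side. Of 16 tested, 12 were negative and 4 positive, with a median of -0.30 over the 15 with a back-calculated value, and none passed the adjusted test. At an unadjusted p under 0.05 there were 6 on the negative side and 0 on the positive side, against 2.89% and 3.92% of all tested genes. The same cut gave 6 of 10 microglial, 4 of 8 ependymal and 4 of 10 reactive astrocyte genes on the negative side. It gave 6 of 10 meningeal and 5 of 10 neocortical genes on the positive side. Among these 5 lists only reactive astrocytes had a gene on the other side, 1 of 10. Rasl10a, a small GTPase, had -0.68 ± 0.23 (p = 0.0027, adjusted p = 0.217 in the authors' deposited table). Plk5, a polo-like kinase of neurons, had -0.71 ± 0.27 (p = 0.00838, adjusted p = 0.391 in the authors' deposited table). Il16, a cytokine precursor, had -0.45 ± 0.18 (p = 0.0142, adjusted p = 0.484 in the authors' deposited table). Prox1, the homeobox factor that keeps granule neuron identity, had -0.29 ± 0.13 (p = 0.0285, adjusted p = 0.617 in the authors' deposited table), though the naming rule did not select it. Calb1, a calcium-binding protein of mature granule neurons, lay on the positive side with p = 0.741 and adjusted p = 0.992 in the authors' deposited table.

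Markers of neocortical neurons lay on the other side. Of 10, all 10 were positive, with a median of 0.58, and 3 passed, Ccn2, Cplx3 and Nxph3, with log2 fold changes of 1.55, 1.43 and 1.36. Of 10 markers of CA1 and CA3 pyramidal neurons, 4 were positive and 6 negative, with a median of -0.03 and none past the test. Both dentate and pyramidal genes were thus measured in these samples, along with neocortical ones. The share of dentate gyrus in each sample could not be measured from the table, and its part in the values of Neurod1, Eomes or the granule neuron genes was not tested.

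**Figure D4:**
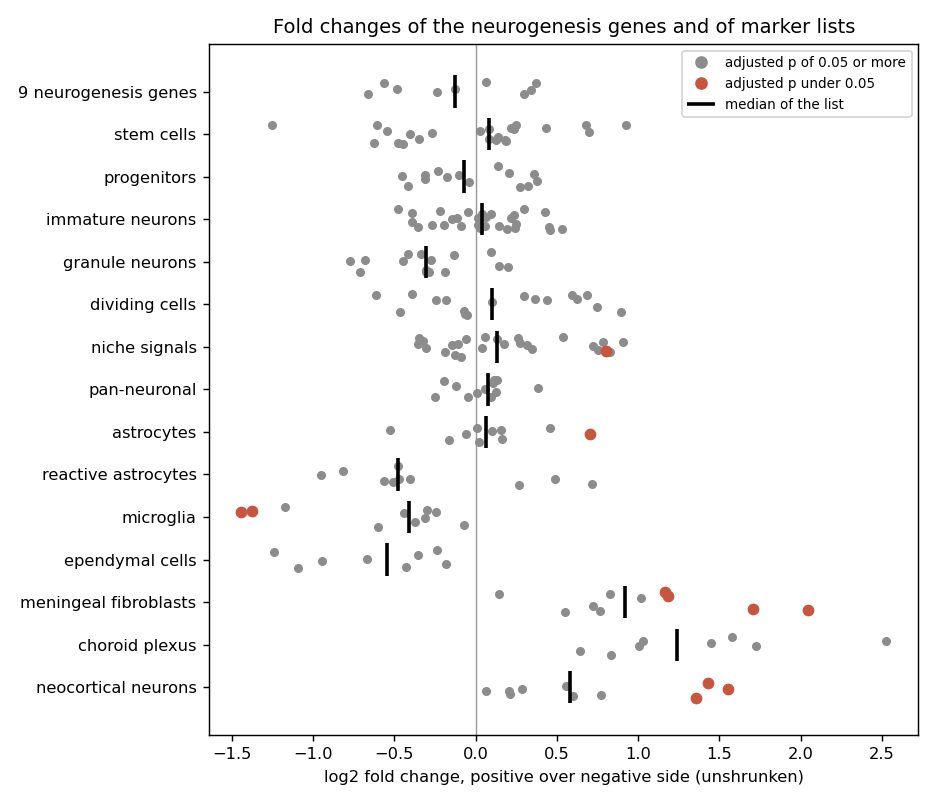
Unshrunken log2 fold changes (horizontal axis) of the 9 neurogenesis genes and of the tested genes in 14 marker lists, 1 point per gene with the scatter within a row only for legibility. Red points have an adjusted p under 0.05 and black bars are list medians, which run from -0.55 for ependymal cells to 1.24 for choroid plexus.

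Genes of dividing cells ranged from means of 6.16 (Aurkb) to 1285 normalized counts (Ccnd1). Of 17 tested, 9 were positive and 8 negative, with a median of 0.10, and none passed. Mki67, the proliferation antigen Ki-67, had 26.4, 19.6 and 25.2 normalized counts in N1 to N3 and 32.6, 42.6 and 44.5 in P1 to P3. Its sides did not overlap, as in 20.75% of the 53 list genes and 15.2% of the 297 genes drawn at random. Its log2 fold change was 0.75 ± 0.41 (p = 0.0663, adjusted p = 0.771 in the authors' deposited table). Ccnd1, a G1 cyclin also expressed by mature neurons and glia, had -0.39 ± 0.17 (p = 0.0212, adjusted p = 0.55 in the authors' deposited table). Mcm3, a subunit of the replicative helicase, had -0.61 ± 0.28 (p = 0.029, adjusted p = 0.621 in the authors' deposited table). Any cell that divides after stroke, such as microglia or precursors of oligodendrocytes, adds to these counts.

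Among signals and receptors of the neurogenic niche, 15 of 25 tested genes were positive, with a median of 0.13. Reln was the only one past the test, as given above. Interneurons of the hippocampus and Cajal-Retzius cells secrete reelin, which guides the migration of newborn granule neurons. Endothelial and mural markers, which include cells that express Nes, had 4 positive and 6 negative values of 10, with a median of -0.14. Markers of oligodendrocyte precursors had 6 positive and 4 negative values of 10, with a median of 0.14, and none passed in either list. Of 10 lymphocyte markers only 2 had enough reads to be tested, and neither passed.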

How the data were processed

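Per the labels' protocols, stranded mRNA libraries were read as pairs of 150 bp, trimmed (fastp 0.20.0), aligned (HISAT2 2.1.0) and counted per gene (FeatureCounts 2.0.1). The submitters' processing notes name DESeq2 1.28.0. No source used here gives the genome build or the strand setting, so overlapping genes may share reads. The deposited mean is a signal, the mean over 6 libraries of counts divided by size factors. The deposited fold change, on the log2 scale, and its error had been shrunken toward 0 before deposit, to judge by the values. The test used here is the authors' own deposited p-value with its adjusted p-value, which is given for genes of mean 5.67 or more. The planned fit to counts needs columns per library and gave way to that fallback, which the design names.

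The unshrunken fold change was back-calculated by taking the deposited value as the peak of a normal likelihood times a Cauchy prior of scale 0.0357 (log2). Against values from reads in 66 genes, the median ratio was 1.01 (5th to 95th percentile 0.989 to 1.02). Those reads were kept only where they gave back the same deposited values under the same prior. The likeness was thus largely fixed in advance and is no independent check of the unshrunken values. Whole reads were found by listing sets of 6 whole numbers that give the deposited mean. The normalized count of each library was searched only within a range around that mean, narrower for higher means. Sets with a library outside the range were not listed. A set was kept if it gave back the deposited fold change within 2% and its error within 0.1%. The dispersion used was the one that gives the deposited p. Where several sets gave the mean, a Pearson chi-square of at most 7.31 was also asked. This limit was first asked of all genes and was lifted for means with a single set after Igfbpl1 had failed it, which raised the genes read from 6 to 7 of the 9. Before the checks Dcx had 318 sets, Neurod1 298, Sox4 202, Sox11 141, Nes 18, Eomes 1 and Igfbpl1 1. The checks were also applied to genes of the deposited table with means of 15 to 40, p under 0.8 and only 1 possible set. Of these 238 genes, 223 (93.7%) passed all 3 checks, on fold change, error and chi-square. Whether the checks keep the right set among many was not tested on genes of the deposited table. The sign of the fold change of genes with 1 read placed each library on a side, without exception. Tested on simulated data, the search found the right set for 15 of 20 genes at a mean of 30, 4 of 4 at 100 and 12 of 12 at 400, and accepted 0 wrong ones. Those genes were simulated with the same model, size factors and prior that the checks then used, and with a looser chi-square limit. The right set was thus bound to match on fold change and error. The simulation cannot tell how often a wrong set is kept in the deposited data. The ranges of counts searched and the highest means tried, 600 for the 9 genes and 200 for list genes, were set while exploring the data, as was the choice of a Wald test for this match. Intervals are 95%.

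The 9 genes and 20 lists (262 genes) were chosen with earlier results of these data known. All 9 genes are named, and from each list every gene with an adjusted p under 0.05, or up to 3 with the smallest p. Genes outside this rule (Prox1, Calb1, Aurkb, Lhx5, Cxcr4, Tmem212, Rsph1, Dlx2, Dlx5, Ebf3, Trp73, Dynlrb2, Sp8 and Neurog2) were chosen after their values were seen. A few genes are left out of the text although the rule covers them. Promoters came from RefSeq. The software was Python 3.11.15 (pandas 2.3.3, scipy 1.17.1, numpy 2.4.6) with figures from matplotlib 3.10.9. Alternatives were another threshold, other sets of genes in the adjustment, rescaled or centred z, other priors and leaving out each library.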

Additional observations from a re-analysis of the deposited data

How the results depend on the processing

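None of the 9 genes passed under an adjusted p of 0.1, under adjustment over every gene with a p or over genes of at least 1 CPM, or with z divided by its SD or centred by mean count. The smallest adjusted p over these was 0.201, for Hopx. The number of list genes past the threshold was 11, and 6 with z divided by its SD over all tested genes (1.09). It lay between 8 and 13 under the other settings. By list, astrocyte calls went from 1 to 0 under 3 settings, meningeal calls from 4 to 2 or 1 under 2 settings, and the call of Reln was lost under 1, while the 2 microglial and 3 neocortical calls stayed at 2 and at 3 or 4. The median fold change of the 9 genes was -0.13, and -0.51 with the prior scale doubled, which rescales every back-calculated value. The prior's scale was itself set on genes read per library. With the limit on scatter asked of every gene, a choice made after seeing the data, Igfbpl1 has no values per library. Leaving out 1 library turned the sign for Sox11, Igfbpl1 and Nes and not for Dcx, Neurod1, Eomes and Sox4, though that of Sox4 without P2 was 0.008. No paired analysis was possible because the table has no columns per sample, and the replicate numbers were given in accession order, since the labels carry none. Counts limit what can be seen, and the 95% intervals ran from -1.73 to 0.41 for Eomes and from -1.53 to 0.57 for Igfbpl1.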
